A study of Mus musculus with 16 samples.

Results

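The 10 genes described here carry the retinoid visual cycle: Rpe65, Lrat, Rdh5, Rdh10, Rdh11, Rdh12, Rlbp1, Rgr, Stra6 and Rbp3. They were chosen by gene symbol among the 19938 genes with a value on the array, and 10 of 10 were measured, each by 1 transcript cluster with that symbol alone. Rdh11 has 1 further cluster that also carries another gene's symbol and was not used. Expression was measured in the neurosensory retina (NSR) and in the isolated retinal pigment epithelium (RPE) of 8 mice, all albino males of the Balb/cJ strain at 10 weeks of age. The labels name 4 groups of 4 arrays: NSR- and RPE- from 4 control mice that stayed on a 12-hour light and dark cycle, and NSR+ and RPE+ from 4 mice kept for 18 hours under 10000 lux from cool white fluorescent lamps and killed 4 hours later. NSR and RPE of a mouse share its number, and no mouse was pooled. Values are log2 expression, so that a difference of 1 is a factor of 2.

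The visual cycle restores the light-sensitive chromophore of the photoreceptors. Light turns the cis form of retinal, bound to opsin, into the all-trans form, which photoreceptor dehydrogenases reduce to retinol. Retinol passes to the RPE, where LRAT makes it into a retinyl ester, RPE65 turns the ester into cis-retinol, and dehydrogenases such as RDH5 oxidize this to cis-retinal, which returns to the photoreceptors. CRALBP, the product of Rlbp1, carries the cis forms in RPE and Müller glia, RGR is an opsin of the same cells, STRA6 takes up retinol from the blood, and the product of Rbp3 (IRBP) carries retinoids between the cell layers.

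Array medians lay between 6.52 and 6.57 in the NSR groups and between 6.38 and 6.43 in the RPE groups, and an array correlated with the others of its group at a mean of 0.991 to 0.995. The labelled tissues matched their markers: the median of 20 RPE markers was 11.12 to 11.29 in control RPE and 6.09 to 6.22 in control NSR, and that of 17 rod markers 12.00 to 12.03 in control NSR and 7.99 to 8.46 in control RPE. Some markers of other cells were also higher in control RPE than in control NSR (limma adjusted p under 0.05). This held for 10 of 13 microglia and macrophage markers, with 0 lower. It also held for 8 of 9 fibroblast and pericyte markers, with 1 lower. How much of these cells the RPE samples held was not tested. Beyond this, markers of other cells set 3 of the RPE arrays off from their groups. RPE control 2 had a lens marker median of 7.92 against 6.59 to 6.74 on the other control RPE arrays. RPE light 2 had a cornea and ciliary marker median of 8.60 against 6.16 to 6.21 on the other light-exposed RPE arrays. RPE light 1 had a rod marker median of 8.58 against 7.87 to 8.11. The brightness and the altered light schedule came together and cannot be told apart. With 4 arrays in a group, precision is limited by their number.

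Stretches of promoter sequence are shown for the 3 genes with a match to TAATCC, the core bound by OTX2 in the RPE and by CRX in photoreceptors. Rpe65 and Rgr were brighter in RPE, and Rbp3 was brighter in NSR. The letters are those of RefSeq (GRCm38.p6), read 5′ to 3′ on the gene's strand, and capitals mark motif matches (TAATCC on either strand, which reads GGATTA on the other, and CATGTG). The Rpe65 stretch is chr3:159599127-159599156 on the plus strand, the Rgr stretch chr14:37049115-37049214 on the minus strand, and the Rbp3 stretch chr14:33953903-33954002 on the plus strand.
Rpe65: ctcctccaataaGGATTAgattgcatacaa
Rgr: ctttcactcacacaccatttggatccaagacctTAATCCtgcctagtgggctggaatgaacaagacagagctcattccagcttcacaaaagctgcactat
Rbp3: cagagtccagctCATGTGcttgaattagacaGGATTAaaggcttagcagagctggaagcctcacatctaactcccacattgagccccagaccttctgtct
The match lies 42 to 37 bases before the start site of the promoter table in Rpe65, 167 to 162 in Rgr and 69 to 64 in Rbp3. In Rpe65 this start site lies inside the RefSeq span of the gene, which begins at 159599075. The Rpe65 stretch shown, with its match, therefore lies within that span, while those of Rgr and Rbp3 lie before the gene. Of the 10 genes 9 were in the promoter table, with 13 start sites, and 3 of these 13 windows of 250 bases held TAATCC on either strand, against 6.25% of all 32851 windows. Among the other motifs searched on both strands, the E-box CATGTG was in the windows of Rpe65, Rlbp1 and Rbp3 (12.3% of all windows), the E-box CACGTG, bound by MITF, in a window of Rdh11 (6.02%), and AACAAT, bound by SOX9, in that of Rbp3 (9.42%). No matches overlapped each other, and Lrat, Rdh5, Rdh12 and Stra6 had none of the 4 motifs in these windows. The windows of Rlbp1, Rdh5 and Stra6, and the Rdh11 window with CACGTG, lay wholly inside the RefSeq span of their gene. The Rdh11 window before the gene held none of the 4 motifs. A match is a description of the letters and was not tested for binding.

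In control mice the genes divided by tissue, 8 of 10 higher in RPE and 2 higher in NSR, all called at a limma adjusted p under 0.05 over all genes (55% of all genes were called, 30.8% higher in RPE and 24.2% lower). Of all genes called 56% were higher in RPE, and 72.2% after centring on the median of all clusters. Lrat, the acyltransferase that esterifies retinol, measured 12.47, 12.45, 12.47 and 12.52 in the RPE of the control mice and 5.07, 5.36, 4.78 and 5.43 in their NSR. Its arrays were 159.8-fold apart on average, and those of the isomerase gene Rpe65 223.8-fold. Rdh5, the dehydrogenase that oxidizes cis-retinol, had a mean of 11.47 ± 0.02 in the RPE of control mice and of 5.55 ± 0.32 in their NSR (SD, n = 4), 60.6-fold apart (adjusted p = 3.74e-17). The opsin gene Rgr stood at 13.06 ± 0.07 and 7.15 ± 0.24, a 59.97-fold difference, and the retinol transporter gene Stra6 at 12.33 ± 0.04 and 7.22 ± 0.21, a 34.5-fold difference. In these genes the tissues lay far apart, and the spread between control RPE arrays was small. In control NSR the means of Rpe65, Lrat and Rdh5 were below 5.63, among the dimmest 25% of genes, and without a background measure in the deposited values their folds have no firm size.

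The other genes of the RPE side had a clear level in the retina too. Rdh10, which oxidizes all-trans-retinol in RPE and Müller glia, had means of 13.10 ± 0.02 in RPE and 9.50 ± 0.13 in NSR of control mice (SD, n = 4), 12.1-fold apart. Rlbp1 stood at 12.26 ± 0.04 and 9.80 ± 0.08, a 5.52-fold difference. Rdh11, a dehydrogenase of broad expression, stood at 8.85 ± 0.05 and 7.46 ± 0.13 and showed the smallest tissue difference of the 10 genes, 2.62-fold (adjusted p = 1.43e-10).

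Rdh12 and Rbp3, which photoreceptors express, ran the other way. Rdh12, the inner segment dehydrogenase that reduces all-trans-retinal, was at 11.16, 11.05, 10.98 and 10.97 in control NSR and at 6.26, 6.15, 6.03 and 6.18 in control RPE, 29.6-fold lower there (adjusted p = 2.06e-13). Rbp3 was at 12.03 ± 0.08 in control NSR and 7.62 ± 0.43 in control RPE (SD, n = 4), 21.3-fold lower in RPE. Rdh11 and Rdh12 are neighbours on chromosome 12, and their order of tissues was opposite. For all 10 genes the 4 control RPE arrays lay on one side of the 4 control NSR arrays, as they did for 52.2% of all genes (29.5% with RPE higher and 22.8% with RPE lower).

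**Figure D1:**
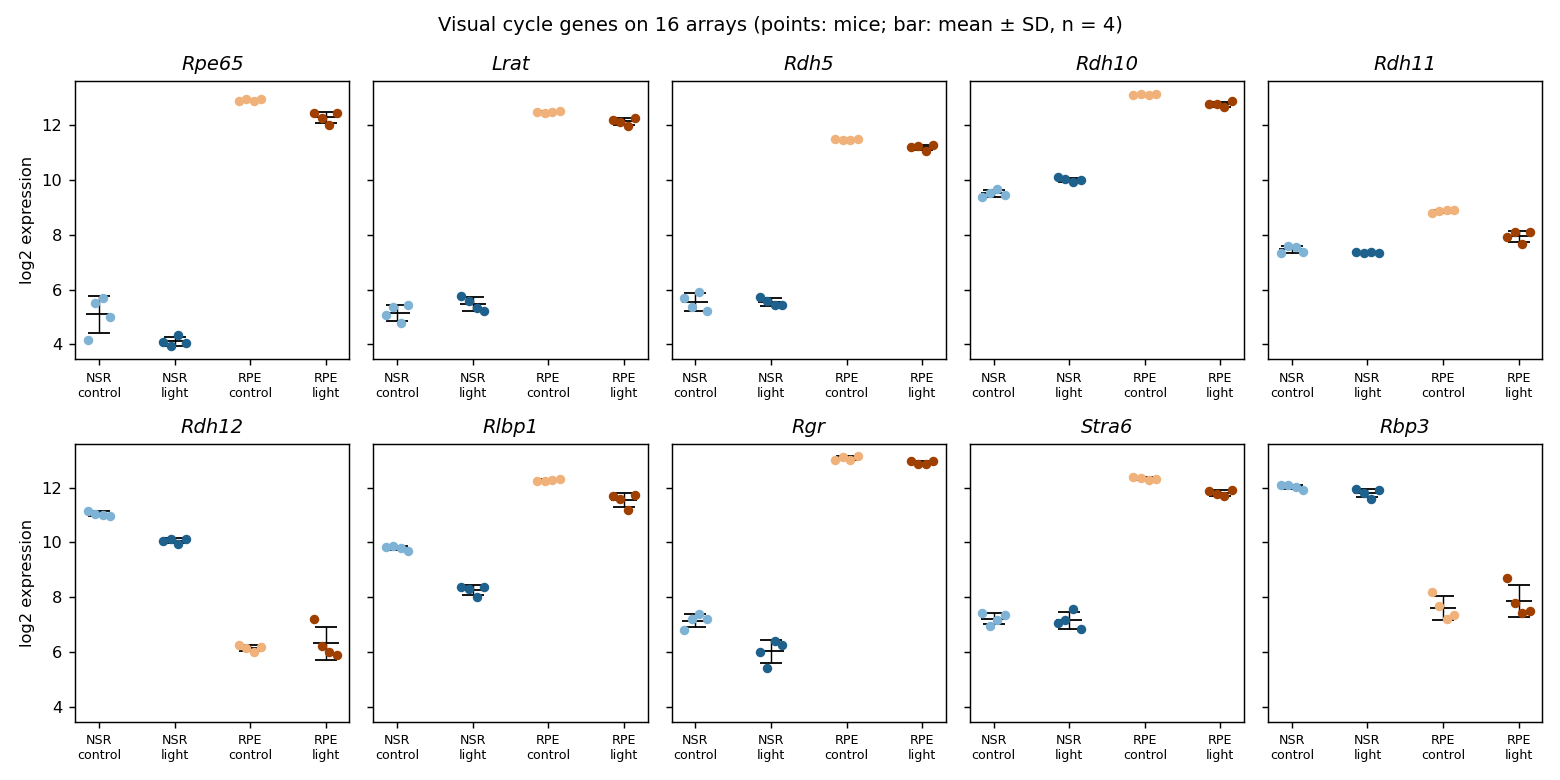
Log2 expression of each of the 10 visual cycle genes (vertical axis, shared by all panels) on the 16 arrays, in NSR (blue) and RPE (orange to brown) of control and light-exposed mice; points are mice and bars are the mean ± SD (n = 4). Rdh12 and Rbp3 are higher in NSR and the other 8 genes higher in RPE in both treatments, and Rlbp1, Rgr and Rdh12 drop in NSR after light.

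In the RPE, light lowered 7 of the 10 genes and raised 0, where 8.53% of all genes were called lower and 9.08% higher. At an unadjusted p under 0.05 limma also found 0 higher. The genes that fell were Rdh11, Rlbp1, Rpe65, Stra6, Lrat, Rdh10 and Rdh5, which include each step from retinol uptake to cis-retinal. Over the 10 genes the median log2 change was -0.35, against -0.01 over all genes. For 8 of the 10 the light-exposed RPE arrays all lay below the control RPE arrays, as for 10.9% of all genes (11.3% lay wholly above, 22.1% in either direction).

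Rpe65, the isomerase, was at 12.87, 12.93, 12.86 and 12.95 in control RPE and at 12.42, 12.26, 11.99 and 12.42 in light-exposed RPE. The groups did not overlap, and the mean fell to 64.7% of its control level (log2 -0.63, SE 0.10, n = 4 per group, adjusted p = 0.00146). Lrat, its supplier of substrate, was at 12.17, 12.12, 11.95 and 12.24 after light, below each control array, and fell to 78.1% (log2 -0.36, SE 0.07, adjusted p = 0.00662). In bulk tissue, fewer cells of a type and less RNA per cell cannot be told apart.

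Of the 4 retinol dehydrogenases, Rdh11, Rdh10 and Rdh5 fell and Rdh12 did not pass the test. Rdh11 showed the largest change of the 10 genes in RPE: it was at 8.77, 8.85, 8.89 and 8.88 in control mice and at 7.91, 8.10, 7.66 and 8.09 after light, 53.3% of the control level (log2 -0.91, SE 0.10, adjusted p = 0.000194). Rdh10 was at 13.09, 13.11, 13.07 and 13.12 and then at 12.75, 12.76, 12.65 and 12.86, 78.9% of control (log2 -0.34, SE 0.06, adjusted p = 0.00375). Rdh5 fell from 11.47 ± 0.02 to 11.18 ± 0.10 (SD, n = 4), 81.7% of control (adjusted p = 0.0111). The 95% intervals of the log2 change ran from -1.12 to -0.69 for Rdh11, -0.48 to -0.20 for Rdh10 and -0.44 to -0.15 for Rdh5. The difference between genes was not tested.

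Among the binding protein, the opsin and the transporter, Rlbp1 fell most. It was at 12.23, 12.24, 12.26 and 12.31 in control RPE and at 11.70, 11.58, 11.18 and 11.72 after light, 60.9% of control (log2 -0.71, SE 0.11, adjusted p = 0.00159). Stra6 was at 12.37, 12.36, 12.285 and 12.30 and then at 11.87, 11.77, 11.68 and 11.92, 69.9% of control (log2 -0.52, SE 0.07, adjusted p = 0.000703). Rgr did not pass the test, at 12.99, 13.11, 13.00 and 13.13 in control RPE and 12.96, 12.87, 12.86 and 12.97 after light. Its groups just failed to overlap, and its log2 difference was -0.14 with an interval from -0.28 to 0.00 (adjusted p = 0.18).

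The 4 light-exposed RPE arrays, each from 1 mouse, lay at unequal distances from the control mean. Genes on the same array are not independent measures, and a difference between the mice was not tested. RPE light 3 was the lowest light-exposed RPE array for 9 of the 10 genes, including each of the 7 that fell. Over these 7, the median difference from the control mean was -0.46, -0.56, -0.65 and -0.40 in RPE light 1 to 4. Without RPE light 3, 7 genes were called lower, and 7 of these were among the 7 called with it. RPE markers outside the 10 genes moved in the same direction less evenly: 10 of 20 fell and 3 rose, with a median log2 change of -0.24, while the median level over the 20 was 11.12 to 11.29 in control and 11.13 to 11.23 in light-exposed RPE. Slc4a5 and Tyr were the only RPE markers of the 20 with a lower log2 change than Rdh11, at -1.17 and -1.06. The part of RPE content in the fall was not tested.

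**Figure D2:**
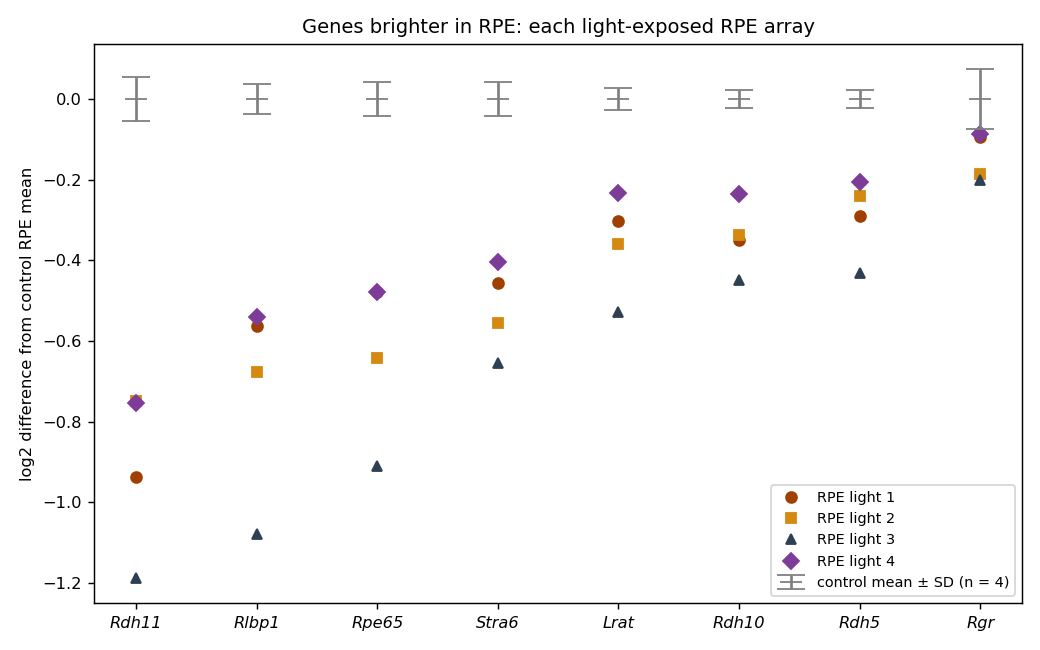
Log2 difference of each light-exposed RPE array from the control RPE mean (vertical axis) for the 8 genes brighter in RPE (horizontal axis, in order of mean change); coloured symbols are the 4 light-exposed mice, grey bars the control mean ± SD (n = 4). The symbols lie below the control mean for each gene, deepest for Rdh11, and RPE light 3 is the lowest throughout.

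At a change of 2-fold or more, 0 of the 10 genes were called lower in RPE, where 0.717% of all genes were. Of the other settings, 2 moved the count of genes lower in RPE by over 1.5 times. In a fit of all 16 arrays with 1 shared spread 4 genes were called lower, where 9.91% of all genes were, with Rpe65 (SE 0.22, adjusted p = 0.0581), Lrat (adjusted p = 0.0633) and Rdh5 (adjusted p = 0.0976) lost at the same log2 values. With the 3 RPE arrays that stood apart left out, 4 were called lower, where 5.31% of all genes were, with Lrat (log2 -0.39, adjusted p = 0.0685), Rdh5 (log2 -0.33, adjusted p = 0.087) and Rdh10 (log2 -0.34, adjusted p = 0.0763) lost.

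Rdh12 and Rbp3 did not pass the test in RPE, where rod markers were also present at unequal levels. Rdh12 was at 7.20 on RPE light 1 and at 6.21, 5.997 and 5.91 on the other light-exposed arrays, overlapping the control range of 6.03 to 6.26 (log2 0.18, interval -0.36 to 0.71, adjusted p = 0.719). Rbp3 was at 8.20, 7.69, 7.22 and 7.36 in control RPE and at 8.71, 7.81, 7.44 and 7.51 after light (log2 0.25, interval -0.39 to 0.89, adjusted p = 0.656). The rod marker median was 8.45, 8.46, 7.99 and 8.07 on RPE control 1 to 4 and 8.58, 8.11, 8.02 and 7.87 on RPE light 1 to 4. The array with the highest rod marker median, RPE light 1, had the highest value of both genes. Without it the log2 difference was -0.12 for Rdh12 and -0.03 for Rbp3, neither called. How much of either gene in these arrays came from rods was not tested.

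**Figure D3:**
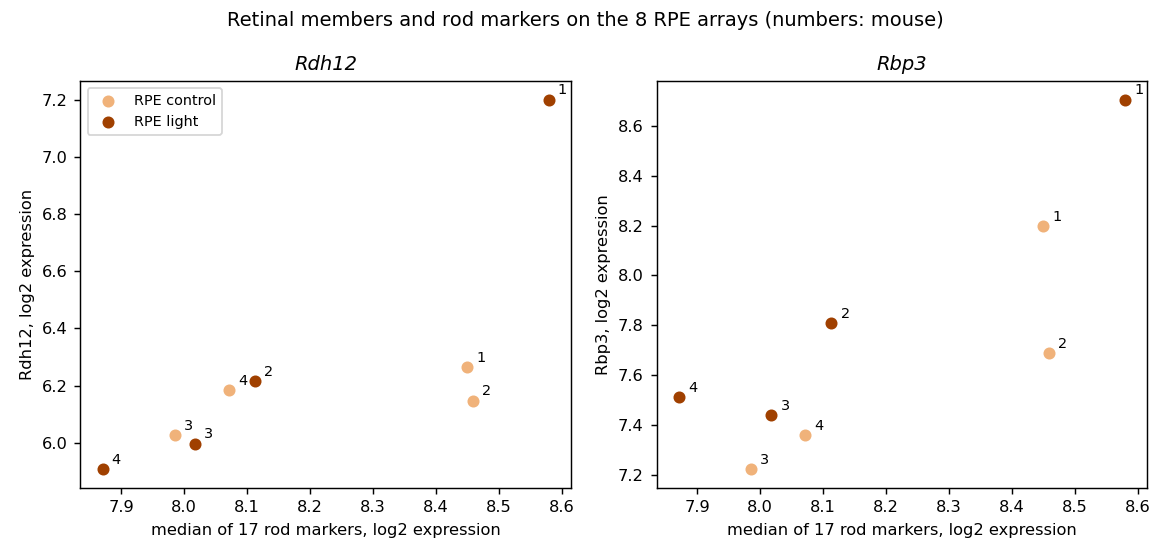
Log2 expression of Rdh12 (left) and Rbp3 (right) on the 8 RPE arrays (vertical axes) against the median of 17 rod markers on the same array (horizontal axes, log2 expression); each point is a mouse with its number, light orange for control and brown for light-exposed. RPE light 1, with a rod marker median of 8.58, is the highest point in both panels.

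In the NSR, light lowered 4 of the 10 genes and raised 1, where 6.24% of all genes were called lower and 8.87% higher. The share of called genes that were higher in NSR was 58.7%, and between 49.5% (quantile normalization) and 67.3% (centring on the median of all clusters) under other scalings. Rlbp1, Rgr, Rdh12 and Rpe65 fell, and Rdh10 rose. The median log2 change of the 10 was -0.17, against -0.02 over all genes. The groups did not overlap for 3 of the genes that fell and for Rdh10, as for 9.97% of all genes in the lower and 10.7% in the higher direction (20.7% in either).

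Among the 10 genes, Rlbp1, which Müller glia express, had the largest change in NSR. It was at 9.84, 9.87, 9.79 and 9.69 in control NSR and at 8.36, 8.30, 8.00 and 8.38 after light, 34.5% of control (log2 -1.53, SE 0.09, n = 4 per group, adjusted p = 2.95e-07). Rgr was at 6.82, 7.20, 7.38 and 7.21 and then at 6.02, 5.43, 6.42 and 6.26, each light-exposed array below each control array (46.0% of control, log2 -1.12, SE 0.19, adjusted p = 0.00141). Rdh10 went the other way, from 9.36, 9.53, 9.67 and 9.46 to 10.09, 10.04, 9.91 and 9.99, 1.42-fold higher without overlap (log2 0.50, SE 0.08, adjusted p = 0.0008). Other Müller glia markers also moved both ways, 7 of 13 lower and 2 higher with a median log2 change of -0.36. Among the 13, Abca8a alone had a lower log2 change than Rlbp1, at -1.74, while Glul, the glutamine synthetase gene, changed by -0.88 and Vim, the intermediate filament gene of reactive glia, by 1.67.

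Of the photoreceptor genes, Rdh12 fell and Rbp3 did not pass the test. Rdh12 was at 11.16, 11.05, 10.98 and 10.97 in control NSR and at 10.07, 10.13, 9.94 and 10.11 after light, a gap wide against a spread of 0.09 within each group (50.8% of control, log2 -0.98, SE 0.07, adjusted p = 2.01e-06). Rbp3 was at 12.09, 12.08, 12.01 and 11.92 and at 11.93, 11.79, 11.59 and 11.90, with overlapping groups (log2 -0.23, interval -0.41 to -0.04, adjusted p = 0.0959). Of 17 rod markers 16 fell and 0 rose, with a median log2 change of -0.58 and a range of -1.30 to -0.20. Of these 17, 2 had a lower log2 change than Rdh12, among them Reep6 at -1.30, and 15 had a lower one than Rbp3. Whether the rods held less of each mRNA or were fewer cannot be told apart.

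Rpe65 was dim in the NSR, at 4.17, 5.505, 5.70 and 5.01 in control mice and 4.08, 3.93, 4.36 and 4.06 after light. The groups overlapped through NSR control 1, and the log2 change was -0.99 (SE 0.26, adjusted p = 0.0239). Ttr, whose product carries retinol-binding protein and whose mRNA was 68.2-fold higher in control RPE, was at 6.19, 7.53, 7.87 and 7.09 on NSR control 1 to 4, the same order of arrays, and at 5.47, 6.41, 6.66 and 6.02 after light. Ttr was chosen after its values were seen, and its change in NSR was not called. On the light-exposed NSR arrays Rpe65 and Ttr did not share an order. Among the other visual cycle genes higher in RPE, only Rdh10 had this order, at 9.36, 9.53, 9.67 and 9.46. Rgr shared its lowest and highest array. Lrat was at 5.07, 5.36, 4.78 and 5.43 on the same arrays, lowest where Rpe65 and Ttr were highest. Rdh5 was at 5.70, 5.36, 5.92 and 5.22. Of 20 RPE markers, 0 had a log2 change in NSR as low as that of Rpe65: the lowest was Rbm47 at -0.39. Of these markers 3 fell and 2 rose in NSR, Ezr by 0.96 and Sulf1 by 0.93, and their median level was 6.09 to 6.22 in control and 5.89 to 6.08 in light-exposed NSR. How much RPE these NSR samples held was not tested. The call of Rpe65 was lost without NSR control 2 (adjusted p = 0.0709), NSR control 3 (adjusted p = 0.0607), NSR light 1 (adjusted p = 0.0526) or NSR light 2 (adjusted p = 0.0644), and with a trended robust prior (adjusted p = 0.0529).

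The other 4 genes did not pass the test in NSR. Lrat was at 5.16 ± 0.30 in control and 5.47 ± 0.25 in light-exposed NSR, Rdh5 at 5.55 ± 0.32 and 5.55 ± 0.15, Rdh11 at 7.46 ± 0.13 and 7.35 ± 0.03 and Stra6 at 7.22 ± 0.21 and 7.17 ± 0.30 (SD, n = 4). Their groups overlapped, and the intervals of the log2 change were -0.01 to 0.64 for Lrat, -0.30 to 0.31 for Rdh5, -0.26 to 0.05 for Rdh11 and -0.37 to 0.26 for Stra6.

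**Figure D4:**
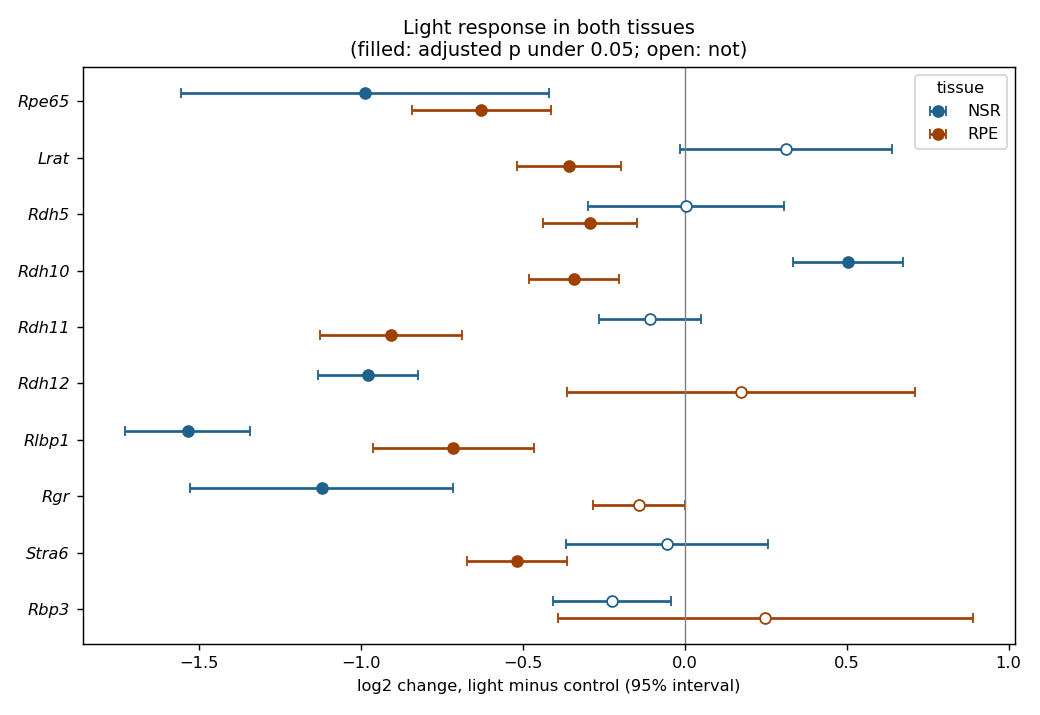
Log2 change from control to light-exposed mice (horizontal axis) of the 10 visual cycle genes (vertical axis) in NSR (blue) and RPE (brown), with 95% intervals from limma; filled points passed an adjusted p under 0.05 and open points did not. Rdh10 lies above 0 in NSR and below it in RPE, Rlbp1 lies below 0 in both, and Rdh12 and Rgr are filled in NSR alone.

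The difference between the 2 responses was tested in a fit of all 16 arrays, as the RPE response minus the NSR response, and was called for 6 of the 10 genes (3 each way, where 5.16% of all genes were called higher and 8.05% lower). Rdh10 changed in opposite directions in the tissues, and its difference was -0.85 (SE 0.10, adjusted p = 1.23e-05). Rdh11 fell in RPE and was not called in NSR, with a difference of -0.80 (SE 0.12, adjusted p = 0.000219). Lrat, also not called in NSR, had a difference of -0.67 (SE 0.18, adjusted p = 0.0204). Rdh12 (1.15, SE 0.27, adjusted p = 0.0068), Rgr (0.98, SE 0.22, adjusted p = 0.0057) and Rlbp1 (0.82, SE 0.15, adjusted p = 0.00102) had the more negative log2 change in NSR. For Rlbp1 this held although it fell in both tissues.

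The response was not called different for Rpe65 (0.36, interval -0.31 to 1.03), Rdh5 (-0.30, interval -0.65 to 0.06), Stra6 (-0.46, interval -0.83 to -0.10, adjusted p = 0.0978) and Rbp3 (0.47, interval -0.20 to 1.15). The call of Lrat was lost without the 3 RPE arrays that stood apart (adjusted p = 0.0627). Rpe65 was called without NSR control 1 (0.67, adjusted p = 0.033) and Stra6 without NSR light 4 (-0.57, adjusted p = 0.0283).

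After light the order of tissues was that of control mice for each gene, with 8 higher in RPE and 2 higher in NSR (58% of all genes were called, 34.4% higher in RPE and 23.6% lower), but the distances had shifted. Of all genes called 59.3% were higher in RPE, and 73% after that centring. The groups did not overlap for any of the 10, as for 51.9% of all genes (30.3% with RPE higher and 21.6% lower). The tissue difference of Rdh11 was 1.504-fold after light against 2.62-fold in control mice, and that of Rdh10 6.71-fold against 12.1-fold. For Rlbp1 it was 9.73-fold against 5.52-fold, and for Rgr 118.2-fold against 59.97-fold. Rdh12 was 13.3-fold lower in light-exposed RPE than in light-exposed NSR, against 29.6-fold in control mice. By mean level, 8 genes ran from control RPE down through light-exposed RPE to the NSR groups, with no overlap between the RPE groups or between RPE and NSR. Among these 8 the NSR groups of Rpe65, Lrat, Rdh5, Rdh11 and Stra6 overlapped, and those of Rdh10, Rlbp1 and Rgr did not. Rdh12 and Rbp3 ran from control NSR through light-exposed NSR to the RPE groups, where the RPE groups overlapped for both and the NSR groups for Rbp3.

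Of 19 other genes of retinoid handling measured, 6 fell and 1 rose in RPE, and 5 fell and 1 rose in NSR, with median log2 changes of -0.17 and -0.08. Over all genes 8.53% were called lower and 9.08% higher in RPE, and 6.24% and 8.87% in NSR. The 1 that rose in each tissue is near the share called higher. Rbp4, the plasma carrier of retinol that STRA6 binds, rose in RPE from 7.79, 7.97, 8.08 and 7.89 to 9.98, 10.12, 10.68 and 9.70, 4.55-fold (log2 2.19, SE 0.18, adjusted p = 4.51e-05), while Stra6 fell in the same arrays. In NSR Rbp4 rose 1.40-fold (adjusted p = 0.00164). Abca4, the outer segment flippase that clears retinal, fell 1.63-fold in NSR and 1.66-fold in RPE (adjusted p = 7.02e-06 and 0.000364). In RPE, Dhrs3, a retinal reductase, fell 1.73-fold, Scarb1, a lipoprotein receptor that also takes up carotenoids, 1.65-fold, Retsat, the retinol saturase, 1.56-fold, and Degs1, a desaturase also described as a retinol isomerase, 1.46-fold. Rdh8, the outer segment retinol dehydrogenase, was not called in NSR (log2 -0.24, adjusted p = 0.194) or RPE (log2 0.02, adjusted p = 0.955).

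Of 6 measured opsins, 3 fell in NSR and 2 in RPE, and 0 rose in either (0 also at an unadjusted p in limma). The shares over all genes were 6.24% lower and 8.87% higher in NSR, and 8.53% and 9.08% in RPE. The opsin of the RPE called peropsin (Rrh) fell in both tissues, from 8.62 ± 0.06 to 6.95 ± 0.19 in NSR and from 12.09 ± 0.04 to 11.41 ± 0.15 in RPE (SD, n = 4), with a difference of responses of 0.99 (adjusted p = 2.99e-05). The cone opsin gene Opn1mw fell 2.75-fold in NSR (adjusted p = 0.000208). Opn1sw, the other cone opsin gene, fell in RPE as well, from 7.43 to 6.22 in mean level (adjusted p = 0.00115). Its log2 difference between control RPE and control NSR was -4.43. How much of it in the RPE arrays came from cones was not tested.

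Of 14 genes of retinoic acid synthesis, breakdown and reception, 1 rose in RPE, 2 rose in NSR and 0 fell in either (in limma at an unadjusted p, 1 in each). These counts are near the shares of all genes called higher, 9.08% in RPE and 8.87% in NSR. Crabp2, which carries retinoic acid to its receptors, rose 2.88-fold in RPE, from 7.34 ± 0.31 to 8.87 ± 0.30 (SD, n = 4, adjusted p = 0.00028), and 1.31-fold in NSR, where its groups overlapped and the call (adjusted p = 0.049) was lost in 10 of 17 other settings (range of adjusted p 0.0333 to 0.128). Aldh1a3, which oxidizes retinal to retinoic acid, rose 1.73-fold in NSR (adjusted p = 0.00404) and was not called in RPE (log2 0.13, adjusted p = 0.333).

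Of 8 measured transcription factors of RPE and photoreceptors, 2 fell and 1 rose in RPE, and 3 fell and 1 rose in NSR. All genes gave 8.53% lower and 9.08% higher in RPE, and 6.24% and 8.87% in NSR. The 1 factor that rose in each tissue is near the share called higher. Mitf, a regulator of RPE identity, fell in RPE from 10.50, 10.35, 10.59 and 10.50 to 9.75, 9.73, 9.65 and 9.80 (log2 -0.75, SE 0.07, adjusted p = 8.33e-05) and was not called in NSR (log2 -0.10, adjusted p = 0.714). Otx2 fell by 0.27 on the log2 scale in RPE (adjusted p = 0.0188), a call lost after quantile normalization (adjusted p = 0.0551), without RPE control 4 (adjusted p = 0.055) and without the 3 RPE arrays that stood apart (adjusted p = 0.116). Tfec, of the same family as Mitf, was dim and rose in RPE from a mean of 4.84 to 5.31 (log2 0.47, SE 0.13, adjusted p = 0.0315), a call lost without RPE control 2, 3 or 4 (adjusted p of 0.0738, 0.0834 and 0.067), without RPE light 1 or 3 (0.0777 and 0.0854) and without the 3 RPE arrays that stood apart (0.209). In NSR Otx2 fell by 0.42 (adjusted p = 0.00109). The photoreceptor factors Crx and Nrl fell 1.75-fold in NSR each (adjusted p = 9.36e-06 and 1.18e-05). Sox9, which Müller glia and RPE express, was 1.29-fold higher in light-exposed NSR (adjusted p = 0.0235), a call lost without NSR control 1, NSR control 2, NSR light 2 or NSR light 3 (adjusted p of 0.0668, 0.0638, 0.0708 and 0.0655).

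**Figure D5:**
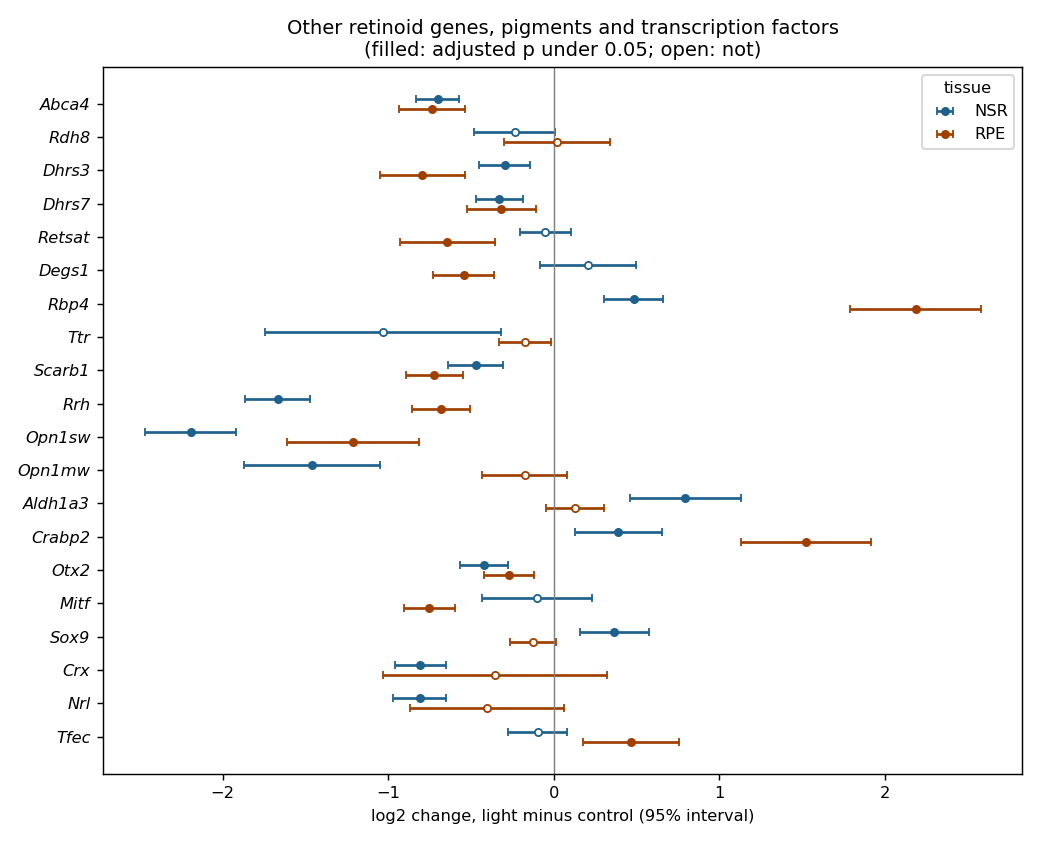
Log2 change from control to light-exposed mice (horizontal axis) of 20 further retinoid, opsin and transcription factor genes (vertical axis) in NSR (blue) and RPE (brown), with 95% intervals from limma; filled points passed an adjusted p under 0.05. Rbp4 and Crabp2 lie highest in RPE, and Opn1sw and Rrh lowest in NSR.

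The genes whose pattern over the 16 arrays was most like each member were found by Pearson correlation among 14698 genes, as a description that rests mainly on the tissue difference shared by the arrays. For Rlbp1 these were Car14, a carbonic anhydrase of Müller glia and RPE (r = 0.993), Rrh (0.993) and Ndufb3 (0.991). Car14 fell in both tissues too, from 9.10 to 7.87 in NSR and from 12.28 to 11.28 in RPE in mean level. For Rdh11 the nearest were Enpp5 (0.990), Megf9 (0.988) and Slc22a17 (0.984), for Rdh12 Pde6a, a rod phosphodiesterase subunit (0.995), Slc17a7, a glutamate transporter of photoreceptor synapses (0.995), and Glmn (0.995), and for Rbp3 Prom1 (0.997), Frmpd1 (0.9965) and Grk1, the rod opsin kinase (0.996). For Rdh10 they were Etfb (0.9979), Fez2 (0.9975) and Abhd2 (0.9975). Each shared the opposed directions in mean level, and each was picked by its likeness on these same arrays. Abhd2 had means of 7.57 and 8.23 in control and light-exposed NSR and of 12.57 and 11.90 in RPE. Those of Etfb were 9.06 and 9.40, then 12.03 and 11.82, and those of Fez2 7.69 and 8.09, then 11.25 and 11.00. For Rpe65 and Rgr 2 of the 3 nearest genes were the same, Spon1 and Cltrn, at 0.997 to 0.998.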

How the data were processed

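Log2 expression values of 35556 transcript clusters on 16 one-colour Mouse Gene 1.0 ST arrays were used as the authors deposited them, and the submitters' processing notes name RMA and Partek 6.6. The log2 scale was read from the values (2.20 to 13.84); no source used here gives the annotation version, filters or a background measure. Symbols came from the platform annotation, updated by gene identifier (21698 of 21789 single-symbol clusters matched); each gene took its brightest cluster. Light was compared within each tissue, and tissues and the difference of responses over all 16 arrays, with limma 3.58.1 (lmFit, eBayes; R 4.3.3), and p-values were adjusted by Benjamini-Hochberg over 19938 genes, called under 0.05. Intervals are 95% intervals of that fit.

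The genes and lists were chosen with earlier results of these data known. Beside the 10 genes, the rule for named genes took up to 4 called genes per list and comparison with the largest change and 3 nearest genes per member; fewer are printed, and genes given as uncalled values or as examples were chosen after their values were seen. Marker lists of microglia, endothelium and fibroblasts gave 2, 1 and 1 higher and 1, 0 and 1 lower genes in RPE, 5, 0 and 0 higher and 0, 0 and 1 lower in NSR; of cones 1 rose and 4 fell in RPE, 1 and 7 in NSR; of lens 0 and 1, then 2 and 0; of cornea and ciliary genes 0 and 1, then 0 and 0. NSR and RPE are paired by mouse; deviations of the same mouse from the group means correlated between -0.01 and 0.05. The fits were tested on simulated data. The planned protein comparison was not run.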

Additional observations from a re-analysis of the deposited data

Results flagged for a closer look

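The response to light differed between the tissues by the test of the difference itself, as RPE response minus NSR response on the log2 scale, for 6 of the 10 genes (13.2% of all genes were called, 5.16% higher and 8.05% lower). It was -0.85 for Rdh10, -0.80 for Rdh11 and -0.67 for Lrat, and 1.15 for Rdh12, 0.98 for Rgr and 0.82 for Rlbp1. Lrat was dim in NSR (means of 5.16 in control and 5.47 after light), so the size of its difference is not firm. Of the 6, Rdh10 moved in opposite directions, with each light-exposed array above the control range in NSR and below it in RPE. In the 40 groups of 4 arrays looked at for these genes, no array stood far enough from the other 3 to be singled out.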

How the results depend on the processing

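Of 38 called values of the 10 genes over 5 comparisons, 32 kept direction and call under all alternatives run (each array left out, centring, quantile normalization, a filter on dim genes, other priors, array weights, mean of clusters, the replicate block, and for light a fit of 16 arrays); the others were Rpe65 in NSR, Rpe65, Lrat, Rdh5 and Rdh10 in RPE, and the difference of Lrat. With a replicate block (the mouse for tissue comparisons and the difference; for light only a shared number, since control and exposed mice differ), 7 genes were lower in RPE and 4 lower and 1 higher in NSR, and 0 of the 50 calls of the 10 genes changed; of the other genes named, Crabp2 in NSR was not called with it (adjusted p = 0.0837). The count of genes lower in RPE was 4 in the fit of 16 arrays and 4 without the 3 arrays that stood apart, where all genes called numbered 4097 and 2056 against 3510. At 2-fold or more, 0 were lower in RPE (0.717% of all genes), 2 lower and 0 higher in NSR (0.211% and 1.14%), and 1 higher and 0 lower in the difference (0.552% and 1.62%). Among the 10 genes, signs turned only in values that were not called: Rdh5 in NSR at -0.018 after centring on the median, and between -0.11 and 0.13 with arrays left out; Stra6 in NSR between -0.19 and 0.0495; Rdh12 and Rbp3 in RPE at -0.21 and -0.12 without the 3 arrays, and with single arrays left out between -0.12 and 0.32 and between -0.031 and 0.44. Rbp3 in NSR (adjusted p = 0.0284) and Rgr in RPE (0.0231) were called with a trended robust prior. The filter on dim genes removed Rpe65, Lrat and Rdh5 from NSR. Centring on the median of all clusters, chosen after seeing the data, moved the median log2 tissue difference of all genes from 0.04 to 0.19 in control mice and from 0.08 to 0.20 after light, and the share of called genes higher in RPE from 56% to 72.2% and from 59.3% to 73%. RMA values hold no detection measure, which limits what dim values can show.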
